A study of Mus musculus with 12 samples.

Results

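The module described here holds 41 interferon-stimulated and antigen presentation genes, chosen by symbol out of 24060 genes measured by RNA-seq in mouse dorsal root ganglia, the clusters of sensory neuron cell bodies beside the spinal cord. It comprises 29 interferon-stimulated genes, 7 genes of the MHC class I pathway and 5 of the class II pathway. Of these, 40 had a level of at least 1 RPKM (reads per kilobase of gene, scaled to the size of the library) in at least 3 libraries and were tested, 28 interferon-stimulated, all 7 class I and all 5 class II. The remaining member, Isg15, reached 1 RPKM in 1 library.

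The ganglia came from adult male C57BL/6J mice of 9 to 10 weeks, and the labels name no engineered allele and no drug. Groups were naive mice and mice 1, 3 and 7 days after spared nerve injury, with 3 libraries each and 12 in all. In this injury the sural branch of the sciatic nerve is spared, and the other branches, common peroneal and tibial, are tied off and cut. Sham-operated mice were not analysed here, so surgery and nerve injury cannot be told apart. The labels do not say whether a library was 1 animal or a pool, so the p-values measure the spread between these libraries, which may be partly technical.

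Type I interferons bind a receptor of IFNAR1 and IFNAR2 chains, whose kinases activate the ISGF3 complex, which holds STAT2 and IRF9. ISGF3 binds the interferon-stimulated response element (ISRE), while genes induced by interferon gamma often carry a gamma-activated site (GAS). Among the induced genes are those of class I presentation, in which peptides cut by the immunoproteasome are pumped into the endoplasmic reticulum by TAP and shown on almost every nucleated cell. Class II molecules show peptides of engulfed material and are made mainly by macrophages, dendritic cells and B cells, and macrophages and satellite glia surround the neurons of the ganglion.

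The letters of the ISRE stood mostly in promoters of the interferon-stimulated members. RefSeq promoter windows of build GRCm38.p6, running from 250 bases before to 50 bases after a start site, were matched for 30 of the 41 members. The ISRE was searched as GAAA, 2 bases of any kind and GAAA again, on either strand, and stood in 14 of 22 interferon-stimulated members (63.6%), in 1 of 6 class I members (B2m) and in 0 of 2 class II members, against 3.99% of all 27025 genes in the same table. The letters TTCNNNGAA of the GAS stood in 7 of 22, 1 of 6 (Psmb8) and 0 of 2 members, against 9.55% of all genes, and overlapped the ISRE letters once, in Bst2. ATTGG, the core of the Y box of MHC promoters, stood in 7 of 22, 5 of 6 and 2 of 2 members, against 41.1% of all genes. Below are 50-base stretches around the first ISRE match, upstream of the start, in 7 interferon-stimulated members and in B2m, shown because the same short element recurs in members with different roles. They read 5′ to 3′ on the strand of the gene, and capitals mark the ISRE letters, which read TTTC, 2 bases and TTTC where the match is on the other strand.
Isg15, chr4:156200867-156200916, minus strand: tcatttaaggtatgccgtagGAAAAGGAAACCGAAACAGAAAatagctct
Ifit1, chr19:34640765-34640814, plus strand: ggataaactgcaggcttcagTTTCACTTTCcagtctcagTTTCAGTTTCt
Ifit3, chr19:34583353-34583402, plus strand: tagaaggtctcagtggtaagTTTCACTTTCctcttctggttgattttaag
Stat2, chr10:128270256-128270305, plus strand: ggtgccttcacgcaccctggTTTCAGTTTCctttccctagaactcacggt
Gbp7, chr3:142530263-142530312, plus strand: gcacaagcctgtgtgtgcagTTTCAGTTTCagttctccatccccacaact
Bst2, chr8:71537573-71537622, minus strand: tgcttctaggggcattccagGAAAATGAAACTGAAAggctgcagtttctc
Igtp, chr11:58199502-58199551, plus strand: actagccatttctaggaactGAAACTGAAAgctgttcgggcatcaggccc
B2m, chr2:122147528-122147577, plus strand: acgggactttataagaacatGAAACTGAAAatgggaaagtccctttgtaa

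In Isg15 and Bst2 matches overlap, and in Ifit1 a second match follows the first closely. A match in these letters is a description of the window and not a binding site. Members also cluster along the genome: on chromosome 17 lie 9 of them, in the MHC region from H2-K1 to H2-D1, and Ifit1, Ifit2 and Ifit3 are neighbours on chromosome 19, as are Gbp2, Gbp3 and Gbp7 on chromosome 3.

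Libraries held 13626893 to 17952865 reads, recovered from the deposited values, which makes a single read of a 1 kb gene 0.0557 to 0.0734 RPKM. Injury was visible in every injured library through Atf3, a transcription factor induced by axon damage, which stood at 44.1 to 104 RPKM against 2.33 to 2.38 RPKM in naive libraries. Summed RPKM of 6 skeletal muscle markers was 29.4 in naive replicate 1 and 24.0 in day 7 replicate 2, against at most 5.42 in the other libraries, and results that change without these 2 libraries are given with both values. RPKM summed over all genes was lowest in day 7 replicate 1, at 206957, and 211668 to 235444 elsewhere. In naive ganglia the interferon-stimulated members had a median level of 4.09 RPKM (0.747 to 16.3), the class I members 1.99 RPKM (1.25 to 195) and the class II members 5.37 RPKM (1.72 to 13.7), against 6.14 RPKM over the 14193 genes tested. Of the genes taken as markers of the module, H2-K1 and Cd74 were well detected in every library and Isg15 was not.

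Few members changed. With limma on log2(RPKM + 0.5) and Benjamini-Hochberg adjustment over all 14193 genes, 1 of 40 members passed at day 1 (Mx2, higher), 1 of 40 at day 3 (Psmb8, higher) and 0 of 40 at day 7. Over all genes tested 3.43% passed at day 1 (2.6% as higher), 5.67% at day 3 (3.72% as higher) and 2.92% at day 7 (2.33% as higher), so the members' shares were no larger than the background. At an unadjusted p under 0.05 there were 8, 4 and 8 of 40 members, against 14.9%, 17.8% and 13% of all genes. By that measure the members' share was above the background at day 1 and day 7 and below it at day 3. With adjustment, voom on the recovered reads called 3, 1 and 1. Median log2 fold changes over the 40 members were 0.05 at day 1, 0.06 at day 3 and 0.24 at day 7, against -0.01, 0 and 0 over all genes. Fold changes were above 0 for 23 members at day 1, 22 at day 3 and 30 at day 7. A typical 95% confidence interval reached 0.45 to either side on the log2 scale, and the interval lay wholly between -1 and 1 (a doubling or halving) for 35 members at day 1, 37 at day 3 and 33 at day 7. Since these are whole ganglia, fewer cells of a type and less RNA per cell cannot be told apart.

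**Figure D1:**
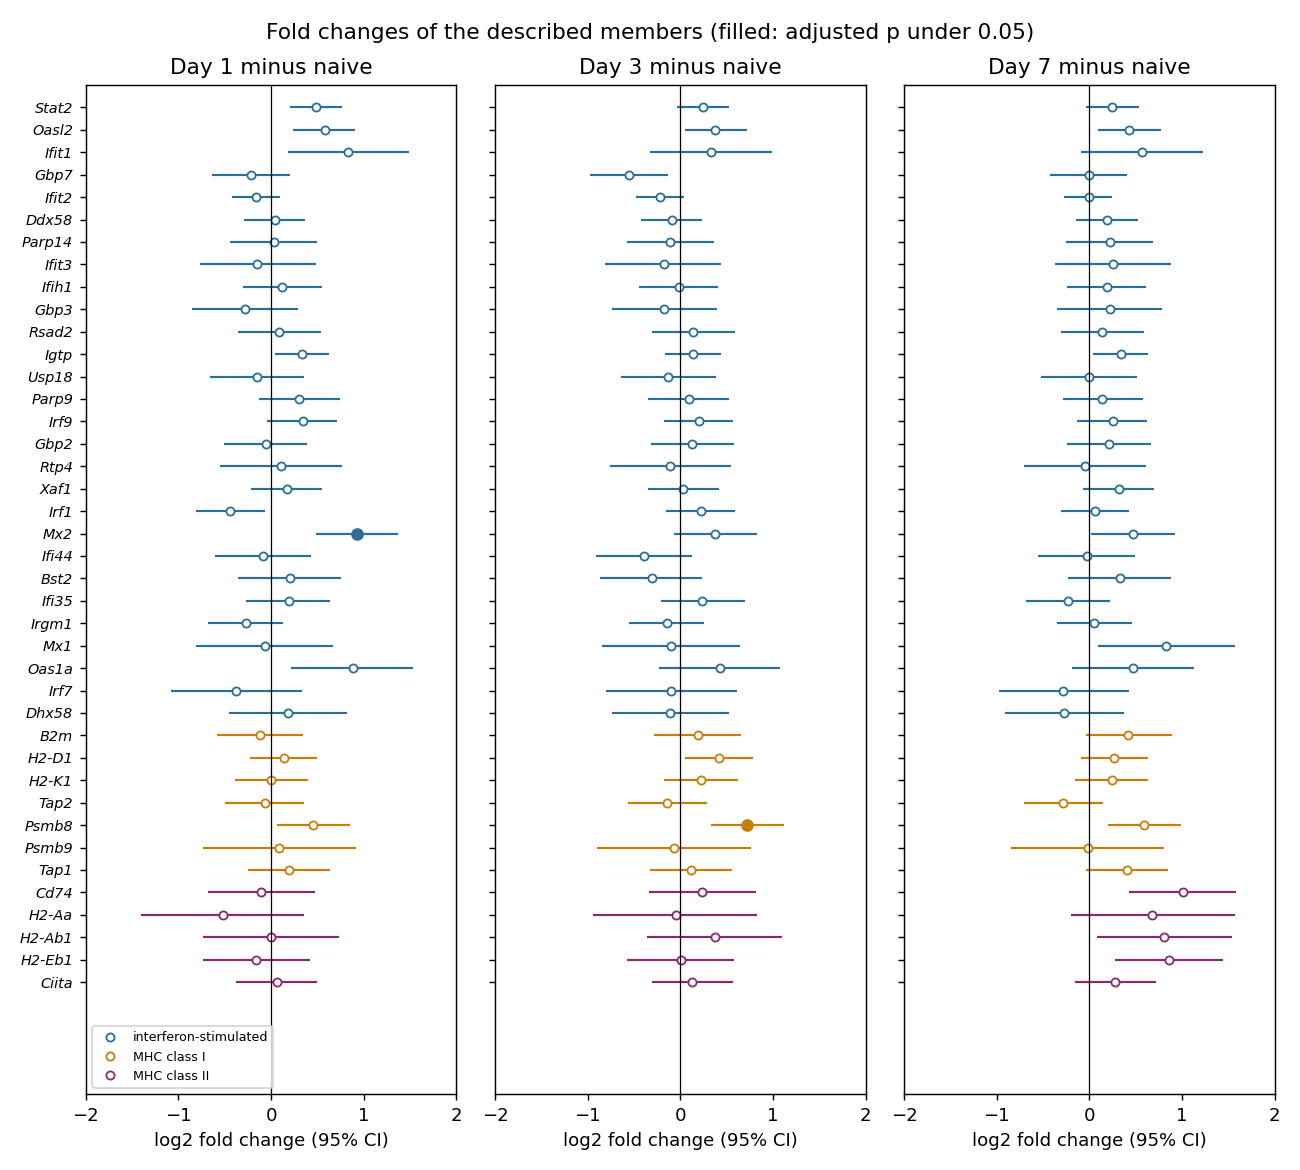
Log2 fold change (x axis, on the log2(RPKM + 0.5) scale) of each of the 40 tested members (y axis) at day 1, day 3 and day 7 against naive, with 95% confidence intervals. Points are coloured by class and filled where the adjusted p was under 0.05, which holds for Mx2 at day 1 and Psmb8 at day 3, and the class II genes sit to the right of 0 at day 7 with wide intervals.

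Among the interferon-stimulated genes, the first in the pathway are the transcription factors. Stat2, a subunit of ISGF3 and the most abundant interferon-stimulated member, had 16.8, 14.1 and 17.9 RPKM in the naive libraries. It had 21.1, 20.2 and 27.6 RPKM at day 1, 19.9, 20.8 and 18.7 RPKM at day 3, and 17.5, 17.5 and 24.6 RPKM at day 7. All 3 libraries of day 1 and of day 3 lay above all 3 naive libraries, while day 7 overlapped them. The log2 fold change at day 1 was 0.49 (95% CI 0.20 to 0.77) with an adjusted p of 0.0622, and it did not pass; it passed in voom (adjusted p = 0.0288), and the adjusted p was 0.0458 without day 7 replicate 3. Irf9, the DNA-binding subunit of the same complex, averaged 5.29 ± 0.883 RPKM at day 1 and 4.09 ± 0.394 RPKM in naive ganglia (SD, n = 3 each). Irf1, a factor induced by interferon gamma, had the lowest log2 fold change of the class at day 1, at -0.44 (95% CI -0.81 to -0.07, adjusted p = 0.234), with 2.05 ± 0.492 RPKM against 2.97 ± 0.634 RPKM in naive. Irf7, which drives interferon alpha genes, was near 1 RPKM in every group (means of 0.675 to 0.999 RPKM) and passed the filter in 3 libraries only.

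Isg15, a ubiquitin-like protein joined to other proteins after interferon, was close to the detection limit. Its values were 0.923, 0.709 and 0.610 RPKM in naive libraries, 0.332, 0.725 and 0.589 RPKM at day 1, 0.330, 0 and 0.261 RPKM at day 3, and 0.164, 1.2 and 0.679 RPKM at day 7. These rest on 0 to 16 reads a library. All 3 libraries of day 3 lay below all 3 naive libraries, and day 1 and day 7 overlapped them. In a fit without the filter its log2 fold change was -0.26 at day 1, -0.88 at day 3 and -0.21 at day 7, with adjusted p of 0.833, 0.182 and 0.9.

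Mx2, a dynamin-like antiviral GTPase, was the interferon-stimulated member that rose. Its level was 2.68, 1.79 and 3.34 RPKM in naive libraries, 5.33, 5.49 and 4.89 RPKM at day 1, 4.17, 3.34 and 3.12 RPKM at day 3, and 4.5, 3.43 and 3.45 RPKM at day 7. All day 1 and all day 7 libraries were above the naive ones, and day 3 overlapped them. At day 1 the mean was 5.24 ± 0.306 RPKM, against 2.60 ± 0.777 RPKM in naive ganglia (SD, n = 3 each), a log2 fold change of 0.93 (SE 0.21, 95% CI 0.48 to 1.37, adjusted p = 0.0249). The log2 fold change was 0.38 at day 3 (adjusted p = 0.383) and 0.47 at day 7 (adjusted p = 0.353), and neither passed. Leaving out a single library ended the day 1 call in 4 cases, with an adjusted p of 0.0757 for naive replicate 1, 0.124 for naive replicate 2, 0.108 for day 1 replicate 1 and 0.0772 for day 1 replicate 2. Dropping both muscle-rich libraries ended it too (adjusted p = 0.0887). Mx2 is annotated as a polymorphic pseudogene in GENCODE M21, and it lies beside its paralog Mx1 on chromosome 16, and the 2 may share reads. Mx1, which is defective in C57BL/6J mice, averaged 2.28 ± 0.318 RPKM at day 7 and 1.23 ± 1.05 RPKM in naive ganglia, where replicate 3 stood at 2.41 RPKM and the other naive libraries at 0.868 and 0.421 RPKM. Its log2 fold change at day 7 was 0.83 (adjusted p = 0.309), and 1.30 (adjusted p = 0.0319) without naive replicate 3.

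Oasl2, a member of the oligoadenylate synthetase family that senses double-stranded RNA, had 17.7, 13.3 and 13.8 RPKM in naive libraries. It stood at 18.3, 22.5 and 26.5 RPKM at day 1, 18.2, 21.6 and 20.0 RPKM at day 3, and 14.8, 20.8 and 28.0 RPKM at day 7. Every library of day 1 and of day 3 was above every naive one. The log2 fold change at day 1 was 0.58 (95% CI 0.24 to 0.91, adjusted p = 0.0656), short of the threshold; it passed in voom (adjusted p = 0.0229) and without day 7 replicate 1 (0.0250) or day 7 replicate 3 (0.0317). At day 7 it was 0.43 (adjusted p = 0.213), and 0.59 (adjusted p = 0.0442) without day 7 replicate 1. Oas1a, an oligoadenylate synthetase with close paralogs, averaged 2.38 ± 1.16 RPKM at day 1 and 1.02 ± 0.418 RPKM in naive ganglia (log2 fold change 0.88, adjusted p = 0.168), with overlapping groups.

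Ifit1, which binds viral RNA lacking cap methylation, varied widely within groups. Naive libraries held 17.5, 6.12 and 10.8 RPKM, day 1 libraries 15.9, 20.0 and 21.8 RPKM, day 3 libraries 13, 14.4 and 13.6 RPKM, and day 7 libraries 14.7, 11.5 and 25 RPKM. Naive replicate 1, a library with muscle RNA, stood above 1 library of day 1, all of day 3 and 2 of day 7. The log2 fold change at day 1 was 0.83 (95% CI 0.18 to 1.49, adjusted p = 0.201) and did not pass. Without both muscle-rich libraries it was 1.15 at day 1 (adjusted p = 0.0152) and 1.14 at day 7 (adjusted p = 0.0359); the part of muscle RNA in this was not tested. The neighbouring Ifit2 and Ifit3, of the same family, had log2 fold changes of -0.22 to 0.25 over the 3 days. Ifit3 held 9.95 RPKM in naive replicate 1 and 12.8 RPKM in day 7 replicate 3, and 3.82 to 6.14 RPKM in the other libraries, and these were also the highest libraries of their groups in Ifit1.

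No change passed for the RNA sensors of the RIG-I family. Ddx58 (RIG-I itself), Ifih1 (MDA5) and Dhx58 (LGP2) had log2 fold changes of -0.27 to 0.19, none passing, with naive means of 8.73 ± 1.30, 4.83 ± 0.813 and 0.833 ± 0.111 RPKM (SD, n = 3). Their day 7 means were 10.2 ± 1.06, 5.72 ± 1.40 and 0.617 ± 0.142 RPKM. Dhx58 ran from 0.393 to 1.45 RPKM over the libraries, and its 95% CI at day 7, -0.91 to 0.37, leaves room for a sizeable difference.

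The interferon-inducible GTPases guard the cell against intracellular pathogens. Of these, Gbp7 had the lowest fold change of any tested member at day 3. It had 8.02, 7.16 and 7.40 RPKM there against 12.1, 8.95 and 12.3 RPKM in naive libraries, and the groups did not overlap. Its log2 fold change there was -0.55 (95% CI -0.97 to -0.13, adjusted p = 0.13) and did not pass, although it did in voom (-0.58, adjusted p = 0.0456), with only the 2 groups in the model (0.0341) and without day 1 replicate 2 (0.0453). At day 7 Gbp7 was at 11.2 ± 0.871 RPKM, against 11.1 ± 1.88 RPKM in naive ganglia. Gbp2, Gbp3, Igtp and Irgm1 had log2 fold changes of -0.28 to 0.34 with none passing, and the Gbp genes are close paralogs whose reads the counting may have split.

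Antiviral effectors and modifiers of the response complete the class. Rsad2 (viperin) and Bst2 (tetherin) had log2 fold changes of -0.31 to 0.33. Usp18, which removes ISG15 from proteins and dampens the type I receptor, averaged 4.17 ± 1.42 RPKM at day 1, 4.33 ± 1.36 RPKM at day 3 and 4.65 ± 0.734 RPKM at day 7, against 4.56 ± 0.164 RPKM in naive ganglia. The ADP-ribosyltransferases Parp9 and Parp14 lay between -0.11 and 0.30, and at day 1 all Parp9 libraries (4.68, 6.54 and 4.64 RPKM) were above all naive ones (4.35, 3.98 and 4.16 RPKM). Xaf1, Rtp4, Ifi35 and Ifi44 lay between -0.39 and 0.32. Ifi44 was lower in every day 3 library (1.5, 1.98 and 1.47 RPKM) than in naive libraries (2.35, 1.99 and 2.47 RPKM), and Ifi35 was higher there (2.38, 2.88 and 2.32 RPKM against 1.64, 2.19 and 2.23 RPKM), neither passing. Non-overlap above naive was seen for Stat2, Oasl2, Mx2 and Parp9 at day 1, 4 of 40 members against 11% of all genes, and below naive for 0 members against 11.7%. At day 3 it was seen above naive for Stat2, Oasl2, Ifi35 and Psmb8 (4 of 40, against 13.8%) and below for Ifi44 and Gbp7 (2 of 40, against 12.7%). At day 7 it was seen above naive for Mx2, Psmb8 and Tap1 (3 of 40, against 11%) and below for 0 members, against 7.13%.

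**Figure D2:**
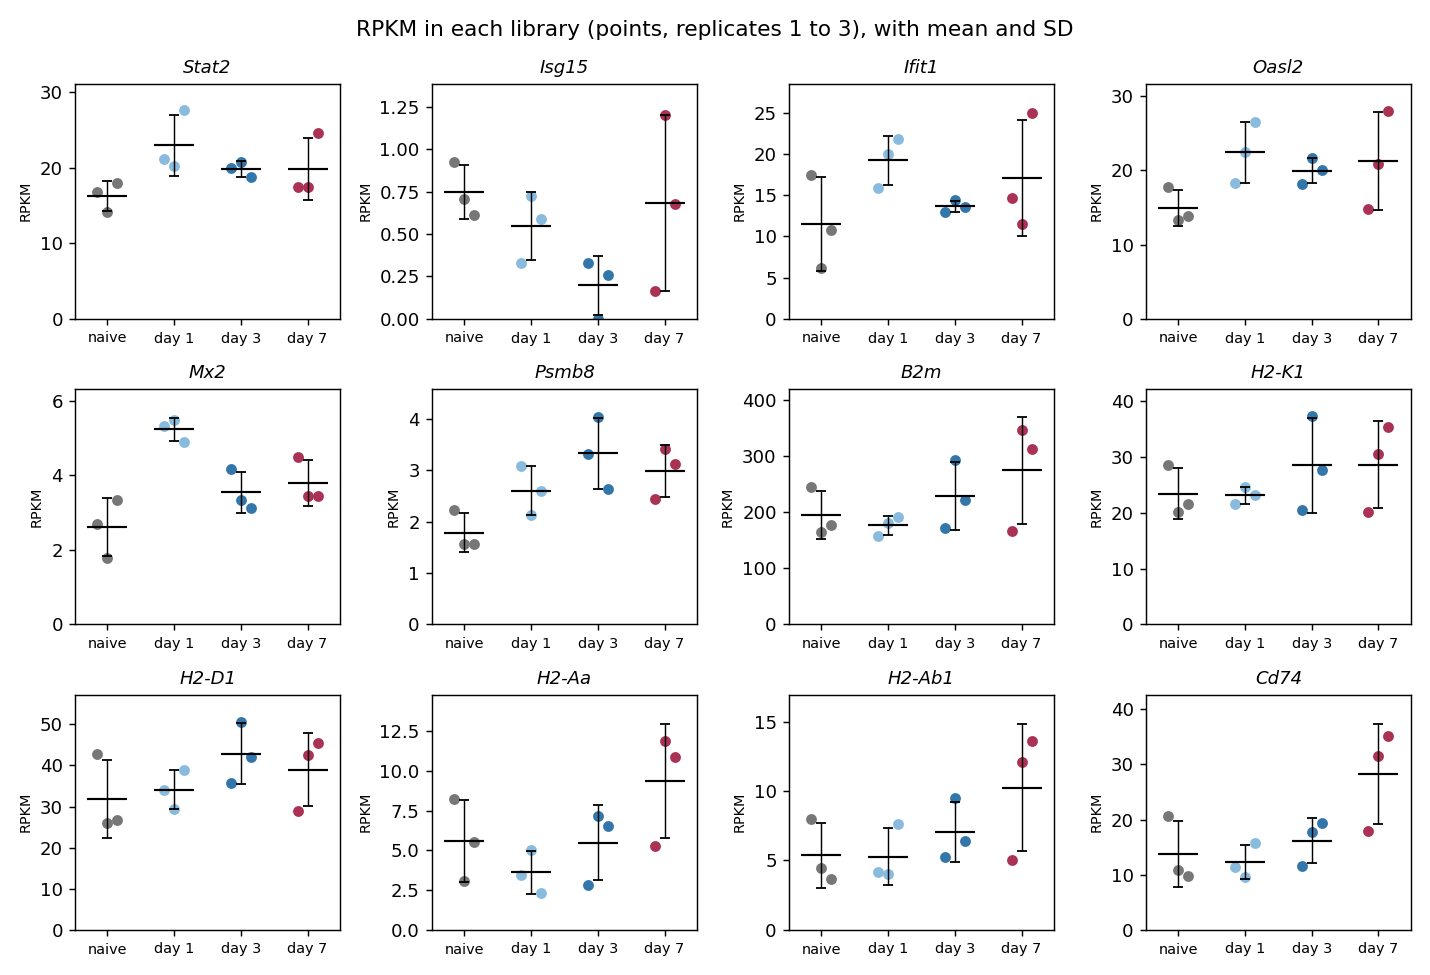
RPKM (y axis, from 0) of 12 members in each library of the naive, day 1, day 3 and day 7 groups (x axis), as points with the group mean and SD (n = 3). Mx2 is above every naive library at day 1, Isg15 is near 1 RPKM or lower throughout, and the class II genes H2-Aa, H2-Ab1 and Cd74 spread widely at day 7, with replicate 1 low.

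In the class I pathway the immunoproteasome subunit Psmb8, which replaces a catalytic subunit of the standard proteasome, was the member that rose. Its level was 2.22, 1.56 and 1.56 RPKM in naive libraries, 3.08, 2.13 and 2.60 RPKM at day 1, 3.32, 4.03 and 2.64 RPKM at day 3, and 2.43, 3.42 and 3.12 RPKM at day 7. All libraries of day 3 and of day 7 were above all naive ones. The mean was 3.33 ± 0.698 RPKM at day 3, against 1.78 ± 0.384 RPKM in naive ganglia (SD, n = 3 each), a log2 fold change of 0.72 (SE 0.18, 95% CI 0.33 to 1.12, adjusted p = 0.0338). It was 0.45 at day 1 (adjusted p = 0.253) and 0.59 at day 7 (adjusted p = 0.124), which did not pass. The day 3 call ended on leaving out naive replicate 2 (adjusted p = 0.132), naive replicate 3 (0.136), day 3 replicate 1 (0.107) or day 3 replicate 2 (0.155), in voom (0.102) and with no filter on low values (0.054). Of its annotated exon bases 11.4% are shared with an antisense gene, Gm20496, and as no source states whether the libraries keep strand, reads of the pair cannot be told apart. Psmb9, the partner subunit, had log2 fold changes of -0.07 to 0.09, with naive libraries from 0.591 to 2.34 RPKM, and shares exon bases with Tap1 on the other strand. Tap1 and Tap2 together form the peptide pump. Tap1 was above all naive libraries (1.42, 1.07 and 1.25 RPKM) in every day 7 library (2.04, 1.59 and 1.89 RPKM), with a log2 fold change of 0.41 (adjusted p = 0.456), while that of Tap2 was -0.28 (adjusted p = 0.645).

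The class I molecule itself was abundant. B2m, the light chain shared by all class I molecules, had 244, 164 and 177 RPKM in naive libraries, 158, 180 and 191 RPKM at day 1, 171, 293 and 222 RPKM at day 3, and 166, 346 and 312 RPKM at day 7. At day 7, 2 libraries lay above and 1 among the naive ones. Its log2 fold change there was 0.42 (95% CI -0.04 to 0.89, adjusted p = 0.459). H2-K1, a heavy chain, followed with 28.6, 20.1 and 21.6 RPKM in naive libraries, 21.6, 24.7 and 23.1 RPKM at day 1, 20.5, 37.4 and 27.6 RPKM at day 3, and 20.1, 30.5 and 35.3 RPKM at day 7. Groups overlapped at each day, with log2 fold changes of 0.00, 0.22 and 0.24 and adjusted p of 0.996, 0.607 and 0.699. H2-D1, the other classical heavy chain of this strain, had 42.7, 26 and 26.8 RPKM in naive libraries, 33.9, 29.5 and 39.0 RPKM at day 1, 35.8, 50.6 and 42.0 RPKM at day 3, and 28.8, 42.5 and 45.4 RPKM at day 7. The largest of its log2 fold changes was 0.42 at day 3 (95% CI 0.05 to 0.78, adjusted p = 0.2), and without naive replicate 1, the highest naive library, it was 0.60 (adjusted p = 0.0467). H2-K1 and H2-D1 are close in sequence, so the split of reads between them is uncertain. Summed RPKM of the 7 class I members ran from 220 to 262 at day 1, 235 to 391 at day 3 and 222 to 428 at day 7, against 215 to 324 in naive libraries. Most of this sum was B2m in every library.

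**Figure D3:**
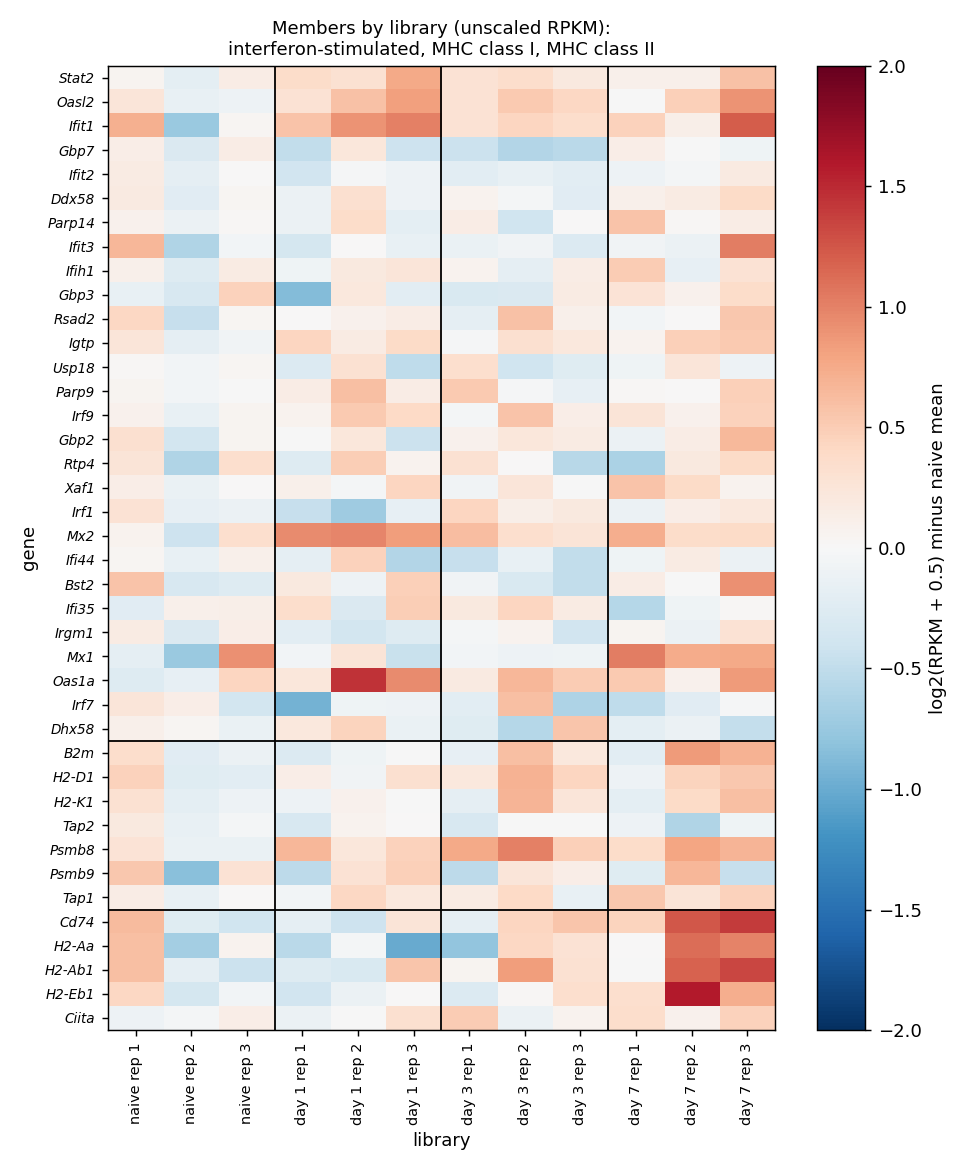
Each of the 40 tested members (rows, grouped as interferon-stimulated, MHC class I and MHC class II) in each of the 12 libraries (columns), as log2(RPKM + 0.5) minus the mean of the naive libraries. Mx2 is higher in all day 1 libraries. H2-Aa, H2-Ab1, H2-Eb1 and Cd74 are higher in day 7 replicates 2 and 3 than in day 7 replicate 1. Ciita is lower in day 7 replicate 2 than in day 7 replicate 1.

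The highest fold changes of the module at day 7 were those of the class II genes Cd74 and H2-Eb1, and 0 of the 5 class II genes passed the threshold at any day. Cd74, the invariant chain that escorts class II molecules, had 20.6, 10.9 and 9.82 RPKM in naive libraries, 11.4, 9.64 and 15.7 RPKM at day 1, 11.5, 17.7 and 19.3 RPKM at day 3, and 18.0, 31.5 and 35.2 RPKM at day 7. The lowest day 7 library lay below the highest naive one, so the groups overlapped. The mean was 28.2 ± 9.05 RPKM at day 7, against 13.7 ± 5.92 RPKM in naive ganglia (SD, n = 3 each), a log2 fold change of 1.01 (SE 0.27, 95% CI 0.43 to 1.58, adjusted p = 0.0701). It passed in voom (adjusted p = 0.00758), on leaving out naive replicate 1 (1.29, adjusted p = 0.0138) or day 7 replicate 1 (1.22, adjusted p = 0.0329) and with summed RPKM as a covariate (0.90, adjusted p = 0.000197), 4 of 23 other settings, over which the adjusted p ran from 0.000197 to 0.264. At day 1 the log2 fold change was -0.11 and at day 3 it was 0.24.

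H2-Aa and H2-Ab1 encode the chains of the class II molecule I-A. H2-Aa had 8.22, 3.07 and 5.55 RPKM in naive libraries, 3.46, 5.06 and 2.34 RPKM at day 1, 2.80, 7.16 and 6.53 RPKM at day 3, and 5.27, 11.9 and 10.9 RPKM at day 7. H2-Ab1 had 8.01, 4.44 and 3.64 RPKM in naive libraries, 4.15, 4.02 and 7.66 RPKM at day 1, 5.28, 9.49 and 6.40 RPKM at day 3, and 5.04, 12.1 and 13.6 RPKM at day 7. Both genes were highest in day 7 replicates 2 and 3, and overlapped naive through day 7 replicate 1. At day 7 the log2 fold change was 0.68 for H2-Aa (95% CI -0.20 to 1.57, adjusted p = 0.55) and 0.81 for H2-Ab1 (95% CI 0.08 to 1.54, adjusted p = 0.319). H2-Eb1, the beta chain of I-E, stood at 2.45, 6.47 and 3.34 RPKM at day 7 against 2.59, 1.32 and 1.74 RPKM in naive libraries (0.86, 95% CI 0.28 to 1.44, adjusted p = 0.128). Ciita, the co-activator that switches class II genes on, had the smallest log2 fold change of the class at day 7, at 0.28 (adjusted p = 0.667), with 2.24 ± 0.358 RPKM against 1.72 ± 0.190 RPKM in naive ganglia. The median over the 5 genes was -0.11 at day 1, 0.13 at day 3 and 0.81 at day 7, and at day 7 all 5 were above 0.

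Summed levels of the class II genes were set beside those of cell type markers, library by library. The 5 class II genes summed to 41.0, 21.3 and 22.7 RPKM in naive libraries, 21.8, 22.1 and 29.8 RPKM at day 1, 23.6, 37.8 and 36.5 RPKM at day 3, and 33.1, 63.9 and 65.6 RPKM at day 7. The 15 macrophage markers summed to 55.4, 49.5 and 40.4 RPKM in naive libraries, 43.0, 46.9 and 46.1 RPKM at day 1, 71.6, 115 and 114 RPKM at day 3, and 71.5, 136 and 129 RPKM at day 7. The largest part of the macrophage sum was Lyz2, with a mean of 30.3 RPKM in naive ganglia and 65.2 RPKM at day 7. In both sums, day 3 and day 7 replicate 1 stood below the other libraries of their day, and the same held for some sums of other cell types. The 8 sensory neuron markers summed to 714, 951 and 935 RPKM at day 3 and 572, 892 and 955 RPKM at day 7, and the 4 Schwann cell markers to 1100, 1510 and 1370 RPKM at day 3 and 820, 1460 and 1540 RPKM at day 7. Summed RPKM of the satellite glia markers and of the fibroblast markers was also lowest in replicate 1 of each of these days. In day 7 replicate 1, Pmp22 held 707 of the 820 RPKM of the Schwann cell sum, and Fabp7 121 of the 238 RPKM of satellite glia. The mean log2 difference from naive over the satellite glia markers was 0.12, 0.23 and 0 at day 7, lowest in replicate 3. Summed RPKM of the endothelium markers was lowest in replicate 2 at day 7 (25.2, 23 and 28.9 RPKM). Single markers differed. Cdh19 of satellite glia was highest in replicate 1, with 55.4, 48.9 and 52 RPKM at day 3 and 74, 56.2 and 57.6 RPKM at day 7. Pdgfra of fibroblasts was lowest in replicate 2 at day 7 (6.03, 5.5 and 6.1 RPKM). At day 3, Prx (17.5, 16.8 and 20.1 RPKM) and Mbp (35.5, 32.9 and 37.6 RPKM) of Schwann cells were also lowest in replicate 2. At day 7 both were lowest in replicate 1. Of the 13 macrophage markers tested, 0 passed at day 1, against 3.43% of all genes. At day 3, 6 rose and at day 7, 6 rose, against 3.72% and 2.33% of all genes. Median log2 fold changes of these markers were 0.12, 0.85 and 1.02, and none of the 15 was at 0 in every library. The 5 neutrophil markers summed to 14.1, 9.87 and 56.5 RPKM at day 3 and 11.6, 31.1 and 27.3 RPKM at day 7, against 14.7 to 16.3 RPKM in naive libraries, so day 3 replicate 3 and day 7 replicates 2 and 3 stood above naive; of the 3 tested, 0 passed against naive at any day in limma, and 0 had an unadjusted p under 0.05. The 4 B cell markers summed to at most 1.90 RPKM in any library, 7 T and NK cell markers to at most 1.48 RPKM, and 6 dendritic cell markers to 8.85 to 11.9 RPKM. The part of macrophage or neutrophil numbers, or of the lower sums in replicate 1, in the class II levels was not tested.

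**Figure D4:**
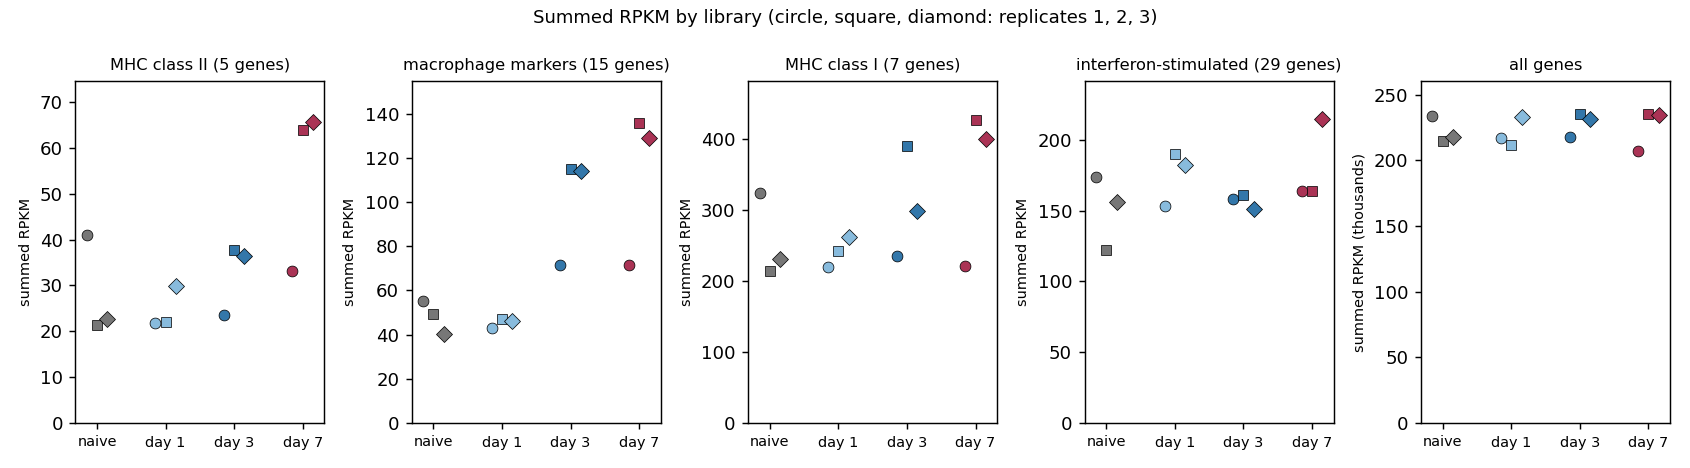
RPKM summed over the class II genes, the macrophage markers, the class I genes, the interferon-stimulated genes and all genes (y axes, from 0, each on its own scale) in each library by group (x axis). Circles, squares and diamonds are replicates 1, 2 and 3: the class II sum reaches 63.9 and 65.6 RPKM in day 7 replicates 2 and 3 and stays at 33.1 RPKM in day 7 replicate 1, where the macrophage sum, the class I sum and the sum of all genes are also lower.

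Between days, 0 of 40 members passed in any comparison. At an unadjusted p under 0.05 there were 2 of 40 members for day 3 against day 1 (9.42% of all genes). There were 8 for day 7 against day 1 (10.4%) and 6 for day 7 against day 3 (5.04%). The members' share was below that of all genes for day 3 against day 1 and above it for the others. With adjustment 0.507%, 0.972% and 0% of all genes passed in these comparisons. Cd74 came closest between day 7 and day 1, at a log2 difference of 1.11 (adjusted p = 0.0822), which passed in voom (adjusted p = 0.00803) and without naive replicate 1 (0.0327). A test for any difference over the 4 groups was passed by 0 of 40 members, against 4.78% of all genes, and at an unadjusted p under 0.05 by 8 members (20%), against 16.6% of all genes; voom called Mx2 and Cd74, Cd74 passed without naive replicate 1, and Oasl2, Mx2 and Cd74 passed without day 7 replicate 1. The lowest adjusted p in that test were 0.0804 for Cd74 and 0.0845 for Mx2.

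Upstream of the members, the interferons themselves were scarcely detected. Of 11 ligand genes, 5 were listed at 0 in all 12 libraries, Ifnb1 among them, and Ifng, the gene of interferon gamma, had at most 1 read in a library. The exception was Ifnk, an interferon known from keratinocytes, at 16.5 ± 5.07 RPKM at day 7 and 13.1 ± 1.5 RPKM in naive ganglia (log2 fold change 0.26, adjusted p = 0.673). Ifnk lies at chr4:35152056-35154005 on the plus strand (mm10), inside the span of Mob3b on the minus strand, so without strand its reads cannot be told from unspliced RNA of Mob3b.

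Of 19 receptor, kinase and signalling genes 15 were tested, and Tmem173 was the only one to pass, at each day. Over all genes 3.43% passed at day 1, 5.67% at day 3 and 2.92% at day 7. Tmem173 encodes STING, which relays cytosolic DNA to interferon induction. Its level was 1.49, 0.932 and 0.830 RPKM in naive libraries, 5.26, 4.41 and 5.64 RPKM at day 1, 3.12, 3.05 and 3.78 RPKM at day 3, and 1.75, 2.14 and 2.55 RPKM at day 7. Every injured library was above every naive one, and the days did not overlap each other. The log2 fold change was 1.85 at day 1 (SE 0.17, adjusted p = 2.44e-05), 1.27 at day 3 (adjusted p = 0.000399) and 0.73 at day 7 (adjusted p = 0.0309). The calls at day 1 and day 3 held in 22 of 22 other settings, that at day 7 in 13 of 22; the day 7 call ended on leaving out naive replicate 2 (adjusted p = 0.134), naive replicate 3 (0.156), day 7 replicate 2 (0.0817) or day 7 replicate 3 (0.111). It also ended on dropping both muscle-rich libraries (0.0556), in voom (0.0648), without scaling (0.0551) and with the 2 groups alone (0.155). Jak2, the kinase of the interferon gamma receptor, averaged 22.7 ± 1.81 RPKM at day 1 and 16.4 ± 0.710 RPKM in naive ganglia (0.47, adjusted p = 0.0603). Socs3, a feedback inhibitor of cytokine receptors, was at 1.03 ± 0.154 RPKM at day 1 and 0.413 ± 0.305 RPKM in naive ganglia (0.82, adjusted p = 0.218).

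Of 38 other interferon-stimulated genes 34 were tested, and 0 passed at day 1 (3.43% of all genes) and 0 at day 3 (5.67%). At day 7, 2 rose, against 2.33% of all genes. These were Oas2, a larger oligoadenylate synthetase, with 2.21, 1.73 and 2.30 RPKM at day 7 against 0.921, 0.524 and 0.887 RPKM in naive libraries (1.01, SE 0.23, adjusted p = 0.03), and Ifi204, a DNA-binding protein of the PYHIN family, with 3.37, 2.10 and 3.45 RPKM against 1.40, 0.960 and 0.861 RPKM (1.12, SE 0.26, adjusted p = 0.0327). Neither overlapped naive, and each call held in 15 of 22 other settings. The Oas2 call was lost without any of the 3 naive libraries, day 7 replicate 1 or day 7 replicate 3 (adjusted p = 0.0642 to 0.149) or both muscle-rich libraries (0.0895), or with the 2 groups alone (0.0614). The Ifi204 call was lost without any of those 5 single libraries (adjusted p = 0.0533 to 0.142) or without a filter on low values (0.0658), and it held without both muscle-rich libraries (1.44, adjusted p = 0.0411). Ifi27l2a was at 2.77 ± 0.722 RPKM at day 7 and 1.38 ± 0.242 RPKM in naive ganglia (0.76, adjusted p = 0.0909). Cmpk2, a mitochondrial nucleotide kinase beside Rsad2, was at 4.34 ± 0.912 RPKM at day 3 and 6.32 ± 1.03 RPKM in naive ganglia (-0.53, adjusted p = 0.0797).

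Of 16 other class I pathway genes 13 were tested, and 1 rose at day 3, against 3.72% of all genes. This was Cd1d1, which presents lipids to NKT cells. It stood at 3.18, 3.12 and 2.97 RPKM at day 3, against 1.36, 1.65 and 1.25 RPKM in naive libraries (0.88, SE 0.22, adjusted p = 0.026). At day 1 and day 7 Cd1d1 overlapped naive. The day 3 call ended on leaving out naive replicate 1 (adjusted p = 0.0841), naive replicate 3 (0.107) or any of the 3 day 3 libraries (0.0653 to 0.0922). Nlrc5, the class I counterpart of Ciita, was at 2.53 ± 0.391 RPKM at day 1 and 1.99 ± 0.203 RPKM in naive ganglia (0.28, adjusted p = 0.585). Of 15 other class II pathway genes 14 were in the files and 8 were tested. Of those tested 1 rose at day 3, against 3.72% of all genes, and 1 at day 7, against 2.33%. Ctss, the protease of macrophages and dendritic cells that trims the invariant chain, rose at day 3 and day 7. It stood at 4.05, 3.33 and 3.10 RPKM in naive libraries, 4.52, 4.03 and 3.81 RPKM at day 1, 7.29, 11.3 and 9.11 RPKM at day 3, and 9.20, 19.3 and 18.2 RPKM at day 7, with replicate 1 the lowest of its day at both later times. Its log2 fold change was 0.22 at day 1 (adjusted p = 0.691), 1.25 at day 3 (SE 0.20, adjusted p = 0.00175) and 1.92 at day 7 (SE 0.20, adjusted p = 6.78e-05), and both calls held in 23 of 23 other settings. Ifi30, a thiol reductase of antigen processing, was at 4.83 ± 0.877 RPKM at day 3 and 2.61 ± 0.562 RPKM in naive ganglia (0.75, adjusted p = 0.0578). Rfx5, a subunit of the factor that binds the X box of class II promoters, was at 2.40 ± 0.161 RPKM at day 3 and 1.74 ± 0.382 RPKM in naive ganglia (0.36, adjusted p = 0.303).

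**Figure D5:**
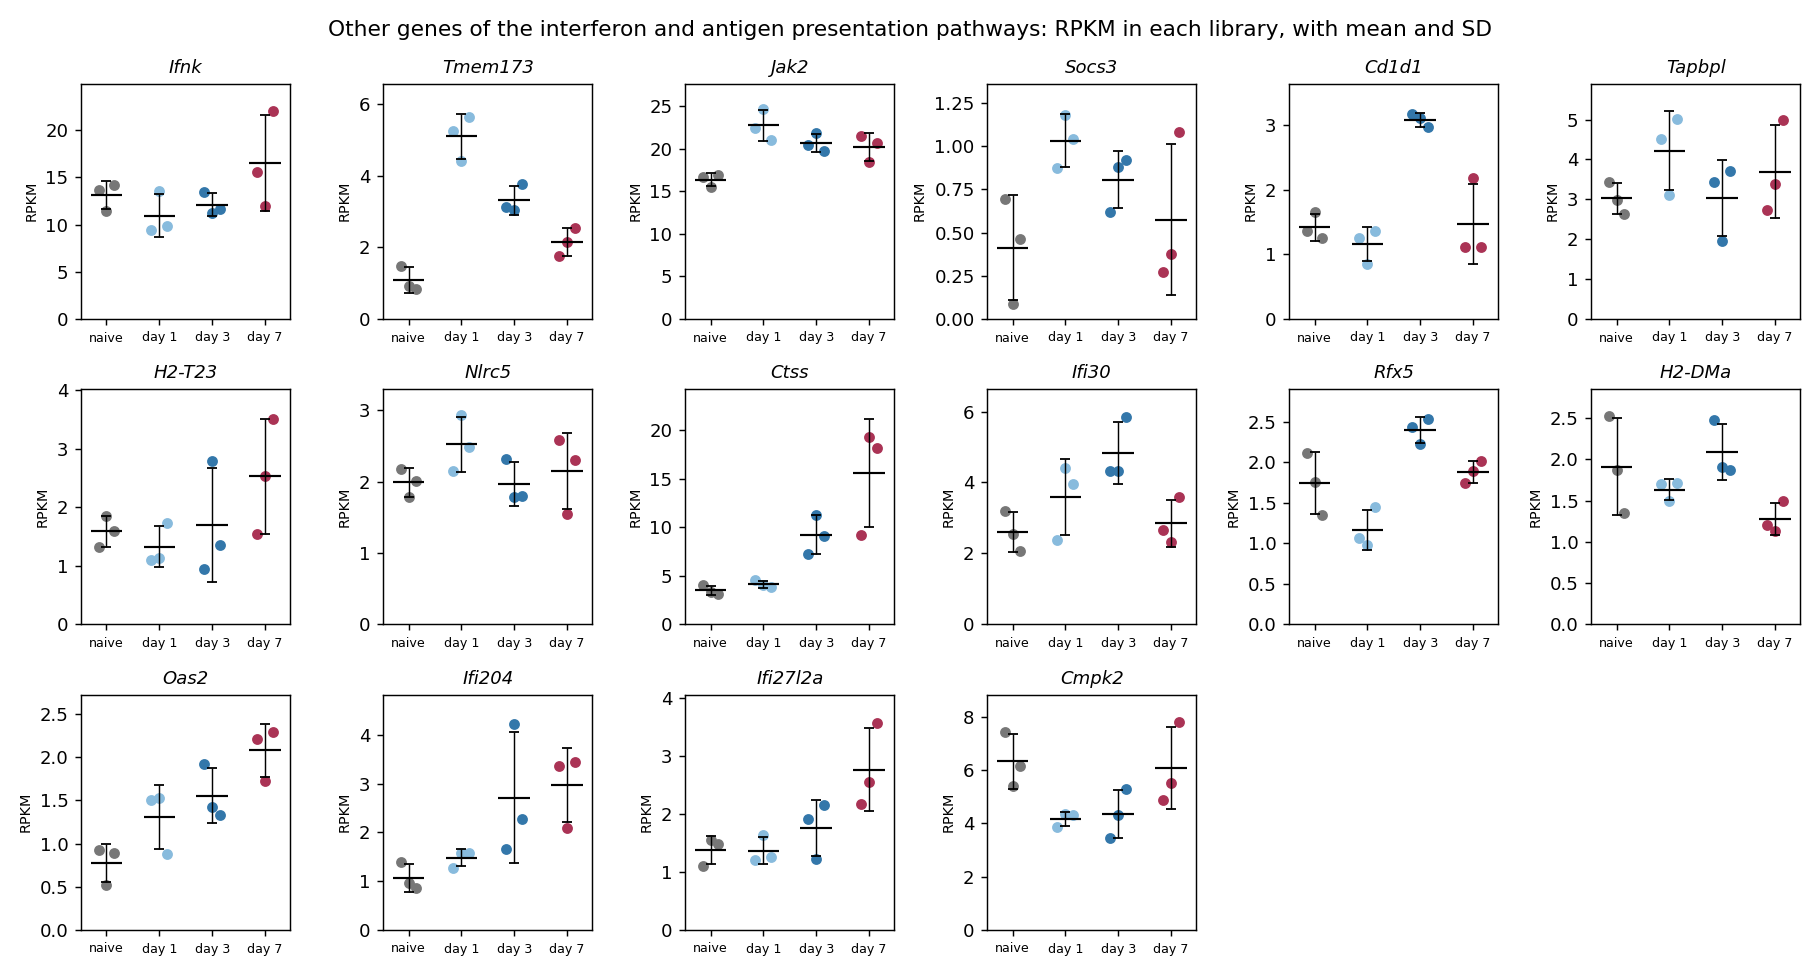
RPKM (y axis, from 0) of 16 genes outside the module in each library of the naive, day 1, day 3 and day 7 groups (x axis), with the group mean and SD (n = 3). Tmem173 is highest at day 1 and lower at each later day, Ctss is higher at day 3 and day 7, and Cd1d1 is higher at day 3 alone.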

How the data were processed

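Per the labels' protocols, 500 pg of ganglion RNA went through Nugen Ovation amplification before TruSeq Nano library preparation; strandedness is not stated there. The submitters' processing notes name the build mm10 and the tools STAR, HTSeq, limma, edgeR and bcl2fastq 2.17, without their roles. The values the authors deposited were read as RPKM (reads divided by gene length and library size), which was inferred from the values, since no unit is written in the files. Whole reads could be recovered for 21594 of the 21597 detected genes (99.99%, tolerance 0.05 reads). Reads were amplified without molecular identifiers and are not independent molecules.

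Members were the listed symbols. The members, the other gene lists and the rules were chosen with earlier results of these data known. The expression filter asked for 1 RPKM or more in 3 libraries or more, 4 entries with duplicated symbols were dropped, and 14193 genes remained. Libraries were scaled by unweighted trimmed means of log ratios (30% of ratios and 5% of levels trimmed), and limma 3.58.1 in R 4.3.3 with statmod 1.5.0 was run on log2(RPKM + 0.5), so fold changes of low genes are understated. A single model of 4 group means over 12 libraries (residual degrees of freedom: 8), moderated robustly along a trend of variance with level, gave two-sided tests with Benjamini-Hochberg adjustment over all genes and a threshold of 0.05. Permuting 3 against 3 libraries exactly cannot give a p below 0.1 and was not used. The scripts were tested on simulated data. Described with a value in every library were members that passed against naive, the markers Isg15, H2-K1 and Cd74, and the 3 members of each class with the highest naive mean; members named beyond these were chosen after their values were seen. From each pathway list up to 4 genes with the smallest p were named, of which 1 gene of the signalling list is not reported here, and 1 gene of the class II list was not matched. Other settings were another pseudocount, filter or scaling, a replicate block, voom on recovered reads, 2 groups alone and each library left out; summed RPKM as a covariate and leaving out both libraries with muscle RNA were added after seeing the data. Coordinates are of mm10 from GENCODE M21, and promoter windows are RefSeq's on GRCm38.p6. Annotated exon bases are shared with another gene in further members, among them Ifi35 (17.4%), Rtp4 (15.2%), Tap2 (15.0%), Gbp7 (11.3%) and Parp9 (10.3%). The part of their reads that came from those genes is not known. Replicate numbers were not used to pair libraries in the reported fit.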

Additional observations from a re-analysis of the deposited data

How the results depend on the processing

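The counts that follow are of members that passed, of 40 tested where not said otherwise. Percentages in brackets are the share of all genes that passed in the same setting. At day 1, 1 member passed in the reported fit (all genes 3.43%). With a filter at 5 RPKM it was 0 of 22 tested, Mx2 not among them (4.69%). Voom called 3 (4.40%) and the fit with summed RPKM as a covariate 3 (9.59%), each time Stat2, Oasl2 and Mx2. With only the 2 groups compared it was 2 (3.38%). Without the libraries with muscle RNA it was Ifit1 in place of Mx2 (1.98%). At day 3 it was 1 (5.67%), and 0 without a filter (3.38%) or with a filter at 5 RPKM (8.02%). It was 2 with the covariate (Psmb8 and H2-D1, 11.8%) and 2 with the 2 groups alone (7.72%). Voom called 1, Gbp7 in place of Psmb8 (7.46%). At day 7 it was 0 (2.92%), and 1 in voom (Cd74; 3.88%), 4 with the covariate (Oasl2, H2-Ab1, H2-Eb1 and Cd74; 8.48%) and 1 without the libraries with muscle RNA (Ifit1; 1.18%). Between day 7 and day 1 it was 0, and 1 in voom (1.68%) and 3 with the covariate (4.07%); between day 7 and day 3 it was 0, and 1 with the covariate (0.0352%); between day 3 and day 1 it was 0 throughout. In the test over the 4 groups it was 0 (4.78%), and 2 in voom (6.65%), 5 with the covariate (13%) and 1 without the libraries with muscle RNA (2.89%). The covariate raised the share called among all genes as well, so its counts are not read as a result about the members. Leaving out 1 library at a time gave 0 to 3 at day 1 (1.54% to 4.37%). At day 3 it gave 0 to 2 (3.18% to 7.67%), and at day 7 it gave 0 to 2 (1.66% to 3.67%). Between day 7 and day 1 it gave 0 to 1 (0.383% to 0.849%), and over the 4 groups 0 to 3 (2.71% to 6.37%). No change of sign accompanied a call, and the cause of these shifts was not tested.

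The replicate block left 1, 1 and 0 members against naive, beside 2.55%, 4.59% and 2.28% of all genes. In that fit the adjusted p was 0.0324 for Mx2 and 0.0491 for Psmb8. Deviations of same-numbered libraries had correlations of -0.34 to 0.234 over 18 pairs, 3 of them over 0.1. Those of libraries with different numbers ran from -0.35 to 0.298 over 36 pairs, 11 of them over 0.1. Between day 3 and day 7, same-numbered pairs were at 0.234, 0.179 and 0.0651, and pairs of different number at -0.198 to 0.0303. Whether same-numbered libraries shared any handling was not tested. The blocked fit also ended the day 7 calls of Tmem173 (adjusted p = 0.0576) and Ifi204 (0.0649) and no other call of a gene named in the results. With the covariate 1361 genes passed at day 1, against 487 in the reported fit. Members under about 1 RPKM rest on few reads, and changes smaller than the intervals given were not detectable with 3 libraries a group.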
